A study of Mus musculus with 30 samples.

Results

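CBE1 is a CTCF-binding element of IGCR1, the control region that lies between the D and V segments of the mouse immunoglobulin heavy chain locus (Igh). Libraries of V(D)J junctions from pro-B cells with an inverted CBE1 were compared with libraries from pro-B cells with a mutated CBE1, to ask what the inverted element still does that the mutated one does not. The members are the libraries whose titles carry these genotypes, 6 of the 30 libraries in the series: 3 labelled CBE1inv/inv (CBE1inv below) and 3 labelled CBE1-/- (CBE1mut below). 3 wild-type libraries (WT) are given as context. All 9 came from strain 129SV, from untreated primary bone marrow cells sorted as B220+IgM-CD43+, and their files carry the same run label. The labels give CBE2, the other CTCF-binding element of IGCR1, no change in these genotypes, and they do not say how the alleles were made, whether cells of several mice were pooled, or whether the libraries of a genotype came from separate mice. The p-values below therefore measure the spread between libraries, which may be technical. Exact tests use the libraries compared. The limma fits take the spread from all 18 bone marrow libraries, which also include the genotypes titled CBE12mut, CBE2inv and CBE2mut.

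Each library was made from genomic DNA by HTGTS-V(D)J-seq, in which a primer in the JH4 segment (the bait) captures whatever DNA has been joined to JH4. A row of a deposited file is a read that joins JH4 to a partner position. The 6 libraries held 506653 junctions, with 84797 to 98682 in CBE1inv libraries and 72658 to 77755 in CBE1mut libraries. WT libraries held 57970 to 89905. Junctions at D and V segments made up 95.7% to 97.7% of the rows in the 6 libraries. Genomic junctions carry no expression markers, so the sorted cell type could not be checked against marker genes.

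As background, Igh is assembled in a fixed order: a D segment is joined to a JH segment on both alleles, and a V segment is then joined to the DJ. The RAG recombinase sits at a recombination centre over the JH segments and the nearest D, and cohesin-driven loop extrusion draws chromatin past it, so that RAG scans the locus until bound CTCF impedes it. In normal pro-B cells IGCR1 stops most scanning short of the V segments, which keeps D to JH joining ahead of V joining and keeps the nearest V segments from being overused. RAG cuts at recombination signal sequences, whose heptamer begins with CAC. CTCF binds a directional motif, so that inverting an element keeps the site but turns it round, whereas mutating it is meant to abolish binding.

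The sequences that the comparison turns on are the ends of the 4 V segments nearest to D, the 2 CTCF-like motif matches between D and V, the most used joining sites beside them, and the D segments whose use differed. The V ends are from mouse build mm9, minus strand, 5′ to 3′, with the heptamer in capitals and 20 bases of coding end before it. Ighv5-1 is a pseudogene and the V nearest to D (chr12:114811099-114811157). Ighv5-2, widely called VH81X, is the functional V nearest to D (chr12:114816676-114816734). Ighv2-2 (chr12:114826439-114826497) and Ighv5-4 (chr12:114835618-114835676) come next.
Ighv5-1: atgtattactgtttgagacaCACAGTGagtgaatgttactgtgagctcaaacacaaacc
Ighv5-2: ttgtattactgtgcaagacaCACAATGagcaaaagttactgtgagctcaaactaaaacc
Ighv2-2: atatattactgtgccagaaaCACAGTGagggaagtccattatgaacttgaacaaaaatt
Ighv5-4: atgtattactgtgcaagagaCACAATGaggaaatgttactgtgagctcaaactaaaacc

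Between Ighd1-1, the last D of the main D array, and the V ends, the mm9 interval of 96.3 kb was searched on both strands for a CTCF-like core chosen after the letters had been seen. The core is the run of capitals below, with any base allowed at the position where the matches differ. It has 2 matches, in opposite orientation. Of the 11724 windows of 10000 bp on chromosome 12, each much shorter than the interval, 1.88% hold a match. Match 1 is on the minus strand (chr12:114723472-114723502) and match 2 on the plus strand (chr12:114726089-114726119), each printed on its own strand with the core in capitals. On the sequence to which the reads were aligned, a 129 Igh sequence joined with mm9, they lie 3092 and 5709 bp from Ighd1-1. Which of them is CBE1 is not given in the sources used here, and the letters are those of the reference, not of the changed alleles.
motif match 1: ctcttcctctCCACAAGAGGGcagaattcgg
motif match 2: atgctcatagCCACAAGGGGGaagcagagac

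The 4 joining sites in that interval described below are printed on the minus strand like the V ends, and are named by their position on the alignment target. Capitals mark the 7 bases that follow the joining end, whether or not they form a heptamer. Sites 114737720 (mm9 chr12:114723505-114723563) and 114784064 (chr12:114763485-114763543) have CAC at the joining end, as has site 114735574 (chr12:114721372-114721430). Site 114738204 (chr12:114723989-114724047) does not. The window of site 114737720 ends beside that of motif match 1.
site 114737720: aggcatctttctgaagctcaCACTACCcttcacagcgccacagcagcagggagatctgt
site 114735574: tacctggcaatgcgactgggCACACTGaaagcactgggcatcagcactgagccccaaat
site 114738204: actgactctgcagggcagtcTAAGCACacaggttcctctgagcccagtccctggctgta
site 114784064: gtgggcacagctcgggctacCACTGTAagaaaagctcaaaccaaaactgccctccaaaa

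D segments are printed 5′ to 3′ in the sense of Igh, as read from the alignment target, and those without an official symbol are named by family and target position. Capitals mark the letters covered by runs of 8 bases found in no other D segment. A D inside a V join was named by its longest match of at least 8 bases, in capitals or not. Equal matches to several D segments of a family were counted as shared letters. Ighd4-1 is DQ52, the D nearest to JH, and Ighd1-1 is DFL16.1, the D at the V end of the main D array.
Ighd4-1: CTAACTGGGAC
Ighd2-like 114705399: cCTACTATAGGTACGAC
Ighd1-like 114719358: TTCATTACTACGGCTAC
Ighd1-1: TTTATTACTACGGTAGTAGCTAC

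The inverted CBE1 was accompanied by far less V joining than the mutated CBE1, and nearly all of the difference lay at the V segments next to D. V joins made up 45.6%, 47.5% and 48.5% of V plus D joins in the CBE1inv libraries, against 71.7%, 73.6% and 72.6% in the CBE1mut libraries. WT libraries had 37.0%, 35.7% and 30.6%. The groups did not overlap: CBE1inv lay below every CBE1mut library and above every WT library, 33.5% of the way from the WT mean to the CBE1mut mean. The difference of means, CBE1inv minus CBE1mut, was -25.4 percentage points (exact permutation test over 20 relabelings, two-sided p = 0.1). With 3 libraries against 3, p = 0.1 is the smallest that an exact permutation test can give, here and wherever it is given below.

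The nearest 4 V segments together, Ighv5-1, Ighv5-2, Ighv2-2 and Ighv5-4, gave 42.0, 44.4 and 46.7 joins per 100 D joins in CBE1inv, against 199, 226 and 216 in CBE1mut. WT had 10.9, 12.5 and 9.46. CBE1mut thus had 4.82 times the CBE1inv mean, while CBE1inv still lay above each WT library (exact permutation test, two-sided p = 0.1 for CBE1inv against CBE1mut). All other V segments together gave 42.0, 46.1 and 47.5 joins per 100 D joins in CBE1inv and 54.3, 52.1 and 49.5 in CBE1mut. The groups again did not overlap, but the CBE1inv mean was 0.870 of the CBE1mut mean, and WT, at 47.9, 43.0 and 34.7, overlapped CBE1inv. With the nearest 4 left out, V joins were 29.6%, 31.5% and 32.2% of V plus D joins in CBE1inv, against 35.2%, 34.2% and 33.1% in CBE1mut. That difference was -3.08 points, in place of -25.4, and the groups still did not overlap (exact permutation test, two-sided p = 0.1).

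**Figure D1:**
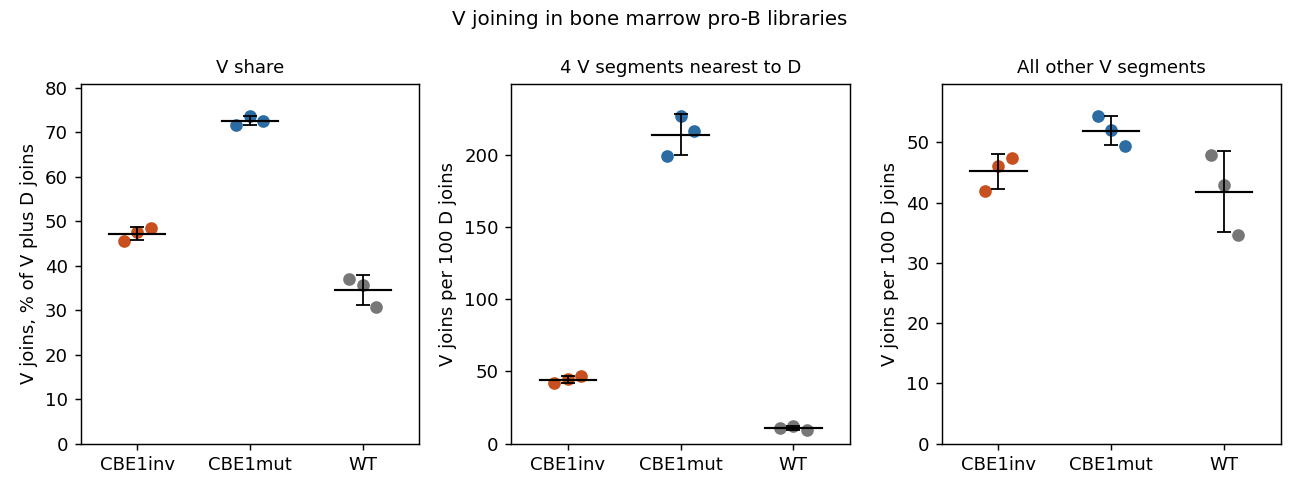
V joining in CBE1inv, CBE1mut and WT libraries, 1 point per library with the mean and SD (n = 3 each): the V share of V plus D joins in %, and joins per 100 D joins to the 4 V segments nearest to D and to all others. The nearest 4 averaged 44.4 joins in CBE1inv and 214 in CBE1mut per 100 D joins, whereas the other V segments averaged 45.2 and 51.95.

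Ighv5-2 carried most of this. It had 16687, 17671 and 17811 joins per 100000 junctions in CBE1inv, against 43920, 48106 and 46659 in CBE1mut and 3526, 3923 and 3315 in WT. All CBE1inv values lay between those of the other genotypes, with wide gaps on both sides. The log2 change, CBE1inv minus CBE1mut, was -1.41 ± 0.07 (SE), or 2.66-fold lower (limma voom, adjusted p = 1.37e-22). Per 100 D joins it had 32.1, 34.9 and 36.0 in CBE1inv, against 159, 186 and 175 in CBE1mut. The per-100000 scale is a share of the library, so that the large Ighv5-2 fraction of the CBE1mut libraries lowers every other share there.

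Neighbours of Ighv5-2 fell too. Ighv5-1, the pseudogene, had 830, 822 and 845 joins per 100000 junctions in CBE1inv and 2257, 2463 and 2183 in CBE1mut, with 152, 207 and 146 in WT (log2 change -1.46 ± 0.15, adjusted p = 1.48e-11, limma voom). Ighv2-2, of the family once called Q52, had 3666, 3242 and 3693 in CBE1inv and 7553, 6540 and 7405 in CBE1mut (log2 change -1.02, adjusted p = 3.99e-13, limma voom). Ighv5-4 had 676, 786 and 751 in CBE1inv and 1277, 1338 and 1389 in CBE1mut (log2 change -0.85, adjusted p = 1.41e-05, limma voom). For the 4 segments in their order from D, the fold by which CBE1inv lay below CBE1mut was 2.76, 2.66, 2.03 and 1.81. Ighv5-4 stood apart from the others against WT: its WT values, 1048, 1389 and 1039, were above those of CBE1inv, whereas the other 3 segments were lower in WT than in CBE1inv.

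Ighv2-3 and Ighv5-6, the next V segments, did not pass the test on this scale. Ighv2-3 had 393, 371 and 418 joins per 100000 junctions in CBE1inv, against 416, 506 and 428 in CBE1mut (log2 change -0.19, adjusted p = 0.38, limma voom). WT libraries had 833, 925 and 824, well above both. Ighv5-6 had 213, 255 and 322 in CBE1inv and 285, 128 and 150 in CBE1mut, which overlap, and 689, 669 and 562 in WT. Of the 10 V segments nearest to D, 4 fell, 2 rose (Ighv5-12 and Ighv2-6) and 4 did not pass. Over all D and V segments tested, 2.99% fell and 41.3% rose. The median log2 change was -0.23 for these 10, beside 0.80 over all segments tested.

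Of 167 D and V segments tested in 1 limma voom fit over the 18 bone marrow libraries, 69 rose in CBE1inv relative to CBE1mut (41.3%) and 5 fell (2.99%) per 100000 junctions at a Benjamini-Hochberg adjusted p under 0.05, 44.3% in either direction. The libraries of the genotypes did not overlap for 109 of the 167 (65.3%). The 5 were the 4 nearest V segments and a D-like segment between Ighd1-1 and V, described below. V parts 1, 2 and 3 divide the V region into equal lengths, counted from D. Of 54 V segments in part 1, 53 were tested, and 23 rose and 4 fell with a median log2 change of 0.68. In part 2, 28 rose and 0 fell of 54 tested, with a median of 0.97, and in part 3, 6 rose and 0 fell of 36, with a median of 0.69. With library sizes set by median-of-ratios factors, which follow the bulk of the segments, 0 rose and 7 fell, among them the nearest 4 V segments. The count of higher segments was 40 without CBE1mut library 2.

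The same picture held by zone. V part 1 had 31269, 33198 and 33674 joins per 100000 junctions in CBE1inv, against 62179, 65120 and 63982 in CBE1mut (log2 change -0.96 ± 0.08, adjusted p = 1.21e-07, limma). V part 2 had 9247, 9452 and 9681 in CBE1inv, against 5491, 4926 and 4994 in CBE1mut (log2 change 0.88 ± 0.22, adjusted p = 0.0031, limma). Of 10 zones fitted, 6 rose (60%) and 1 fell (10%), 70% in either direction. V part 3 rose by 0.68 (adjusted p = 0.049, limma), a call lost when any of 5 of the 6 libraries was left out (log2 change 0.61 to 0.80). Per 100 D joins, in contrast, V part 2 had 17.8, 18.7 and 19.6 joins in CBE1inv and 19.8, 19.1 and 18.7 in CBE1mut, which overlap (exact permutation test, two-sided p = 0.4). V part 3 had 6.12, 6.35 and 6.57 in CBE1inv and 8.58, 7.13 and 6.97 in CBE1mut on that scale, without overlap.

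Within V joins, the shares show how the V repertoire was divided. Ighv5-2 took 38.2%, 38.5% and 38.2% of V joins in CBE1inv, against 62.7%, 66.9% and 65.9% in CBE1mut and 9.80%, 11.4% and 11.2% in WT. The middle V join, counted from D, lay 38.3, 52.6 and 38.3 kb from the nearest V in CBE1inv, against 5.57 kb in each CBE1mut library, which is the position of Ighv5-2. In WT it lay 884, 758 and 742 kb away. As a share of V joins, 125 of 143 V segments rose (87.4%) and 3 fell (2.1%) in CBE1inv relative to CBE1mut (limma voom), with a median log2 change of 1.43. The 3 that fell were Ighv5-1, Ighv5-2 and Ighv2-2.

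Most of those rises went with the Ighv5-2 share. With Ighv5-2 left out of the V joins, 45 of 142 rose (31.7%) and 3 fell (2.11%), the median log2 change was 0.60, and Ighv5-4 was now among those that fell. With all 4 nearest segments left out, 1 rose and 1 fell of 139 (0.719% in each direction, 1.44% in either), and the median was 0.06 with quartiles of -0.15 and 0.34. 17 segments were then at an unadjusted p under 0.05. Both settings were chosen after the values were seen. In this last fit the segment that fell was Ighv2-3 (log2 change -0.91 ± 0.16, adjusted p = 4.60e-05, limma voom), the fifth V from D, and the segment that rose was an Ighv1 family member at 116240676 (log2 change 0.80 ± 0.20, adjusted p = 0.014, limma voom). As a share of all V joins, Ighv2-3 had instead risen (log2 change 0.45), a call lost without CBE1inv library 3 (0.42) or CBE1mut library 3 (0.42).

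The Ighv1-like segment at 116240676 had 468, 463 and 477 joins per 100000 junctions in CBE1inv, against 198, 138 and 158 in CBE1mut and 637, 505 and 434 in WT. Its CBE1inv values were close together and within the WT range, and those of CBE1mut were all lower. Ighv5-12, one of the proximal Ighv5 segments, had 341, 360 and 430 in CBE1inv and 205, 214 and 162 in CBE1mut (log2 change 0.97, adjusted p = 0.0026, limma voom). With the 4 nearest V segments left out of the V joins, Ighv5-12 did not pass (log2 change 0.24, adjusted p = 0.82, limma voom). Ighv2-6 had 95.5, 104 and 68.8 in CBE1inv and 17.9, 59.9 and 9.003 in CBE1mut (log2 change 2.00 ± 0.49, adjusted p = 0.0013, limma voom). The Ighv2-6 change was 1.38 without CBE1mut library 3 and 2.74 without CBE1mut library 2. Like Ighv5-12, Ighv2-6 did not pass with the 4 nearest V segments left out.

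Farther from D, Ighv1-20 had 151, 177 and 138 joins per 100000 junctions in CBE1inv and 50.9, 66.4 and 38.6 in CBE1mut (log2 change 1.60, adjusted p = 3.17e-04, limma voom). Ighv3-3 had 57.8, 50.7 and 32.3 in CBE1inv and 16.5, 14.3 and 10.3 in CBE1mut. For both, the groups did not overlap. Ighv15-2, among the 3 most used segments of V part 2, had 450, 522 and 461 in CBE1inv and 290, 243 and 266 in CBE1mut. Ighv8-12, the most used segment of V part 3, had 368, 420 and 358 in CBE1inv and 257, 241 and 314 in CBE1mut, which did not pass (adjusted p = 0.079, limma voom). With the 4 nearest V segments left out of the V joins, none of the segments in this paragraph passed.

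**Figure D2:**
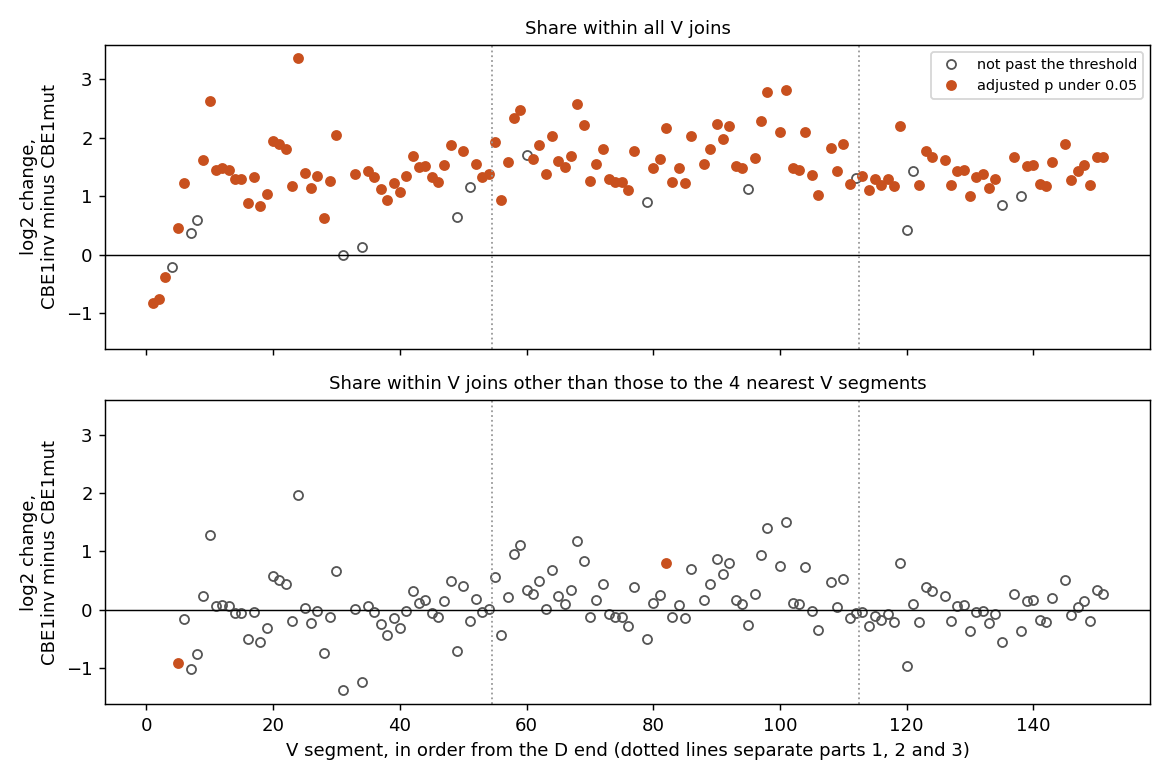
Log2 change of each V segment's share, CBE1inv minus CBE1mut, in order from D (1 point per segment tested; filled points have an adjusted p under 0.05 in limma voom). Within all V joins the median is 1.43; within V joins other than those to the 4 nearest segments it is 0.06 and 2 segments remain past the threshold.

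By family, within all V joins, 57 of 62 tested Ighv1 segments rose (median log2 change 1.45), as did 6 of 8 Ighv8 segments (1.38) and 34 of 37 segments of other families (1.54). None of these fell. Ighv5 and Ighv2, the families interspersed at the D end, had 15 of 19 and 13 of 17 segments that rose (medians 1.33 and 1.121), with 2 and 1 that fell. Of 6 V pseudogenes tested, 4 rose and 1 fell, with a median of 1.21. Over all 143 V segments tested, 125 rose (87.4%) with a median of 1.43, and nothing particular to a family is read from its count. These directions are those of shares of all V joins: with median-of-ratios factors, 1 V segment rose and 5 fell.

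D joins, in which a D has been joined to JH4 with no V, were more frequent in CBE1inv libraries, and the D array was used in different proportions. As a share of D joins, 4 of 24 D segments rose (16.7%) and 5 fell (20.8%) in CBE1inv relative to CBE1mut (limma voom), 37.5% in either direction. The groups did not overlap for 10 of the 24 (41.7%). Both ends of the D array fell while members of the middle rose. Ighd1-1, at the V end of the main array, had 18077, 17970 and 17561 per 100000 D joins in CBE1inv, against 21602, 22295 and 21355 in CBE1mut and 20854, 22922 and 22555 in WT. CBE1inv lay below every library of both other genotypes, which overlap each other (log2 change -0.28 ± 0.06 for CBE1inv minus CBE1mut, adjusted p = 3.13e-04, limma voom).

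At the JH end, Ighd4-1 had 6363, 7184 and 6529 per 100000 D joins in CBE1inv, against 8949, 9004 and 8980 in CBE1mut and 5829, 5366 and 5677 in WT. The CBE1inv values lay between the other genotypes and nearer to WT (log2 change -0.43 ± 0.07, adjusted p = 6.16e-06, limma voom). In the middle, all 4 D segments that rose are of the Ighd2 family, which has 8 tested members with a median log2 change of 0.15, beside 0.04 over all D segments tested. The Ighd2-like segment at 114705399 had 8840, 9832 and 10050 in CBE1inv, against 6756, 6981 and 6970 in CBE1mut and 10037, 9502 and 10012 in WT (log2 change 0.47 ± 0.07, adjusted p = 2.20e-06, limma voom). CBE1inv overlapped WT there, and CBE1mut lay below both.

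The other risers were smaller. They were the Ighd2-like segments at 114700407 (log2 change 0.32) and 114710077 (0.28), whose letters are the same, and Ighd2-3 (0.18, adjusted p = 0.047, limma voom). Ighd6-2, beside Ighd2-3, and Ighd6-1, between Ighd2-3 and Ighd1-1, fell. Both are rarely used and are annotated as pseudogenes. Ighd6-1 had 437, 528 and 406 per 100000 D joins in CBE1inv and 681, 767 and 723 in CBE1mut (log2 change -0.67, adjusted p = 0.036, limma voom). Ighd6-2 had 140, 59.99 and 90.5 in CBE1inv and 492, 172 and 289 in CBE1mut (log2 change -1.68, adjusted p = 0.0028, limma voom). The remaining 15 tested D segments did not pass. The Ighd2-3 and Ighd6-1 calls were lost when any of 5 of the 6 libraries was left out (log2 change 0.16 to 0.20 and -0.78 to -0.58). Without CBE1mut library 1, Ighd6-2 did not pass (-1.31), and without CBE1mut library 2, the segment at 114700407 did not (0.24). The count of D segments that rose was 2 without CBE1mut library 2, and the count that fell was 3 without CBE1mut library 1.

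**Figure D3:**
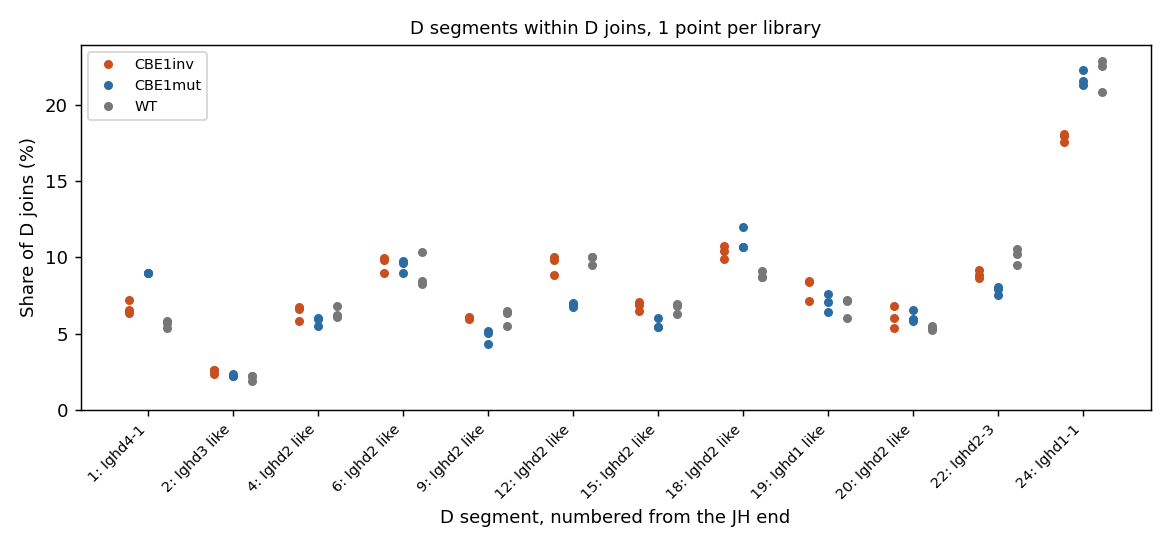
Share of D joins (%) of the D segments that reach 1000 per 100000 D joins in a genotype mean, in order from JH, 1 point per library of CBE1inv, CBE1mut and WT. Ighd4-1 at the left and Ighd1-1 at the right are lower in all 3 CBE1inv libraries than in all 3 CBE1mut libraries, and the Ighd2-like segment at 114705399 (number 12) is higher.

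A D-like segment of the Ighd3 family lies at 114784064, beyond both motif matches and 49498 bp from Ighd1-1, and its joining end is the site of that number printed above. It had 29.5, 15.2 and 22.9 joins per 100000 junctions in CBE1inv, against 114, 87.2 and 57.9 in CBE1mut and 11.3, 0 and 0 in WT. A count of 0 in a library allows up to 3 joins. CBE1inv lay below CBE1mut and above WT, and the log2 change was -1.92 ± 0.51 per 100000 junctions (adjusted p = 0.0028, limma voom). As a share of D joins it was -2.85 (adjusted p = 2.31e-05, limma voom). Its joins are counted both as D joins and as joins of the interval described next.

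In the interval between Ighd1-1 and the V segments, joins at sites that are not functional segments are taken as marks of RAG cutting during scanning. Per 100000 junctions these joins were more frequent in CBE1inv than in CBE1mut, and a larger share of them lay close to D. There were 609, 503 and 642 in CBE1inv, or 718, 510 and 669 per 100000 junctions, against 269, 214 and 245 in CBE1mut, or 370, 279 and 315. WT had 307, 486 and 488 per 100000. The difference of means was 311 per 100000 (exact permutation test, two-sided p = 0.1), and CBE1inv also lay above every WT library. Per 100000 D joins, a scale added after the values were seen, there were 1380, 1006 and 1352 in CBE1inv, against 1337, 1079 and 1181 in CBE1mut, which overlap (exact permutation test, two-sided p = 0.8), and 501, 782 and 729 in WT. The ratio of means, CBE1inv over CBE1mut, was 1.97 per 100000 junctions and 1.04 per 100000 D joins. Over the zones, the interval's log2 change was 0.97 ± 0.41 (adjusted p = 0.049, limma), a call lost with any of the 6 libraries left out (0.87 to 1.12).

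Within 5 kb of Ighd1-1 lay 90.6%, 88.5% and 92.7% of the interval joins in CBE1inv, against 52.04%, 41.1% and 56.7% in CBE1mut and 95.1%, 99.3% and 97.95% in WT. Divided at motif match 2, the match farther from D, the 2 sides moved in opposite directions. On the D side there were 651, 451 and 620 joins per 100000 junctions in CBE1inv, against 194, 115 and 179 in CBE1mut and 292, 483 and 478 in WT. On the V side there were 67.2, 58.8 and 49.0 in CBE1inv, against 176, 164 and 136 in CBE1mut and 15.1, 3.45 and 10.01 in WT. Neither pair overlapped (exact permutation test, two-sided p = 0.1 for each), and on the V side CBE1inv stood above WT as well. The match was chosen as a boundary after the values were seen. The D-like segment at 114784064 gave 25, 15 and 22 of the 57, 58 and 47 V-side joins in CBE1inv. In CBE1mut it gave 83, 67 and 45 of 128, 126 and 106. The V side without this segment was not tested. Per 100000 D joins the D side still had 1251, 890 and 1253 in CBE1inv, against 701, 444 and 670 in CBE1mut and 476, 777 and 714 in WT. On that scale the V side had 129, 116 and 98.96 in CBE1inv, against 636, 636 and 511 in CBE1mut and 24.6, 5.55 and 14.9 in WT, so the direction on each side was the same on both scales.

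**Figure D4:**
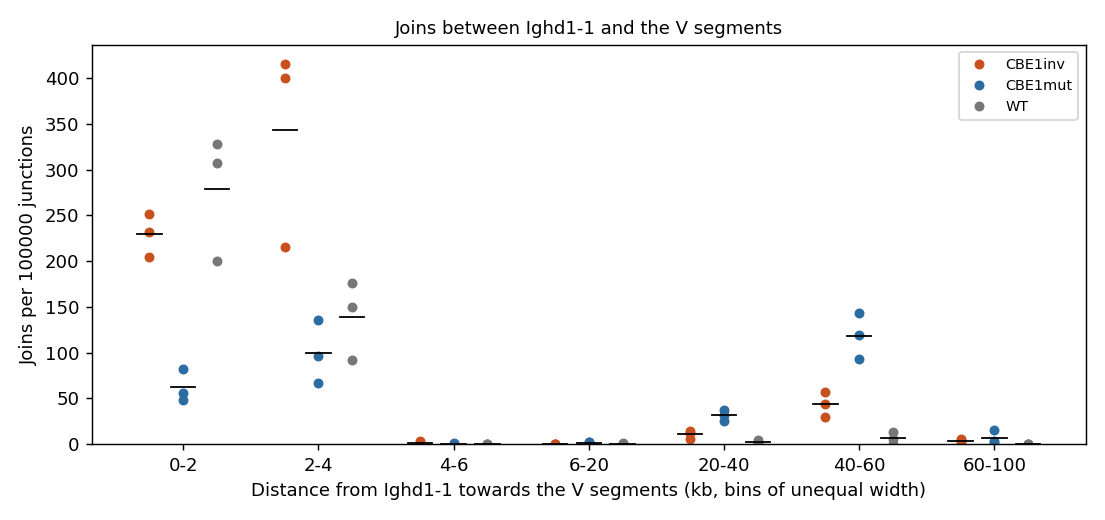
Joins between Ighd1-1 and the V segments by distance from Ighd1-1 (kb, bins of unequal width), in joins per 100000 junctions, 1 point per library with the genotype mean as a line. All CBE1inv points lie above all CBE1mut points in the bins from 0 to 4 kb and below them in the bins from 20 to 60 kb.

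The joins were concentrated at few positions. 11 sites with at least 30 joins held 2228 of the 2482 interval joins of the 6 libraries, and 7 of the 11 have CAC at the joining end, whereas 1.6% of the positions of the interval are followed by CAC. Site 114737720, whose window adjoins motif match 1, had 219, 147 and 294 joins per 100000 junctions in CBE1inv, against 89.5, 58.6 and 96.5 in CBE1mut and 67.9, 121 and 85.6 in WT. It was the most used site, and CBE1inv lay above all libraries of the other genotypes, which overlap. Per 100000 D joins it had 422, 290 and 594 in CBE1inv and 323, 227 and 362 in CBE1mut, which overlap. Site 114735574, 1008 bp from Ighd1-1, had 175, 169 and 142 in CBE1inv and 42.7, 24.7 and 64.3 in CBE1mut. WT, at 122, 219 and 232, overlapped CBE1inv there. Per 100000 D joins this site still did not overlap, with 335, 334 and 286 in CBE1inv and 154, 95.8 and 241 in CBE1mut.

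Site 114738204 lay between the 2 motif matches. It had 111, 60.8 and 92.7 joins per 100000 junctions in CBE1inv, against 37.2, 6.51 and 0 in CBE1mut and 23.9, 27.6 and 57.8 in WT. The CBE1inv libraries were highest and did not overlap the others on this scale. Per 100000 D joins it had 213, 119.97 and 187 in CBE1inv and 134, 25.2 and 0 in CBE1mut, which overlap. Beyond both matches, the site at 114755641 had 1.18, 0 and 3.13 joins per 100000 junctions in CBE1inv and 4.13, 23.4 and 12.9 in CBE1mut. These were 1, 0 and 3 joins against 3, 18 and 10, so the closest libraries had 3 joins each. The sites at 114769851 and 114783434 overlapped between the genotypes. The rule for naming positions took the 5 most used, which all belong to sites 114737720 and 114735574. The other sites were named after their values were seen.

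The D carried inside a V join records which DJ the V was joined to. It could be read, by a match of at least 8 bases, in 66.1% to 67.3% of V joins. Of 14 D segments and groups of D segments that share letters, 1 rose and 1 fell (7.14% each) in CBE1inv relative to CBE1mut over all V joins (limma voom). The Ighd1-like segment at 114719358, the D that resembles Ighd1-1, had 7594, 8411 and 8473 per 100000 such joins in CBE1inv and 6714, 5951 and 6601 in CBE1mut (log2 change 0.35 ± 0.06, adjusted p = 4.11e-06, limma voom). By class of V segment, it rose inside joins of the other V segments of part 1 (log2 change 0.40, adjusted p = 2.31e-04, limma voom). It did not pass inside Ighv5-2 joins (-0.024, adjusted p = 0.80, limma voom) or joins of V parts 2 and 3 (0.16, adjusted p = 0.51, limma voom). The Ighd2-like segment at 114695747 fell by 0.15 on the log2 scale (adjusted p = 0.045, limma voom), a call that most other settings did not keep.

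Ighd1-1 had overlapping shares over all V joins and a lower share in CBE1inv within 2 of 3 classes of V joins. Over all V joins it made up 13.1%, 13.6% and 13.9% in CBE1inv and 13.3%, 13.7% and 13.3% in CBE1mut, which overlap (log2 change 0.01, adjusted p = 0.92, limma voom). WT had 19.8%, 19.3% and 19.8%. Inside Ighv5-2 joins it made up 5.88%, 6.37% and 6.33% in CBE1inv, against 9.60%, 10.8% and 9.29% in CBE1mut (log2 change -0.67 ± 0.10, adjusted p = 3.61e-05, limma voom). Inside joins of V parts 2 and 3 it made up 19.9%, 20.8% and 21.7% in CBE1inv, against 28.7%, 26.0% and 28.0% in CBE1mut (log2 change -0.41 ± 0.06, adjusted p = 9.72e-07, limma voom). The groups overlapped in neither class. In WT the shares were 10.04%, 8.40% and 10.3% inside Ighv5-2 joins, and 21.8%, 22.9% and 23.3% inside joins of V parts 2 and 3.

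Inside joins of the other V segments of part 1, the values were 15.5%, 15.9% and 15.9% in CBE1inv and 15.8%, 16.7% and 18.5% in CBE1mut (log2 change -0.10, adjusted p = 0.18, limma voom). Ighv5-2 joins carried less Ighd1-1 than the other classes in each of the 9 libraries, and they made up a larger share of V joins in CBE1mut, as given above. The division into classes was chosen after the values were seen. The Ighd1-1 contrasts in D joins and in V joins were also set against each other. Its share of D joins minus its share inside V joins was 5.02, 4.33 and 3.67 percentage points in CBE1inv, against 8.27, 8.63 and 8.04 in CBE1mut. That difference of differences was -3.98 points (exact permutation test, two-sided p = 0.1). It was taken over all V joins, whose classes differed in size between the genotypes, and was not tested by class. For CBE1inv minus CBE1mut, the Ighd1-1 share differed by -3.88 points in D joins. It differed by -3.71 points inside Ighv5-2 joins, -1.20 in other V of part 1 and -6.76 in V parts 2 and 3. D joins were assigned by position and D inside V joins by letters, so the shares are unlike measures.

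**Figure D5:**
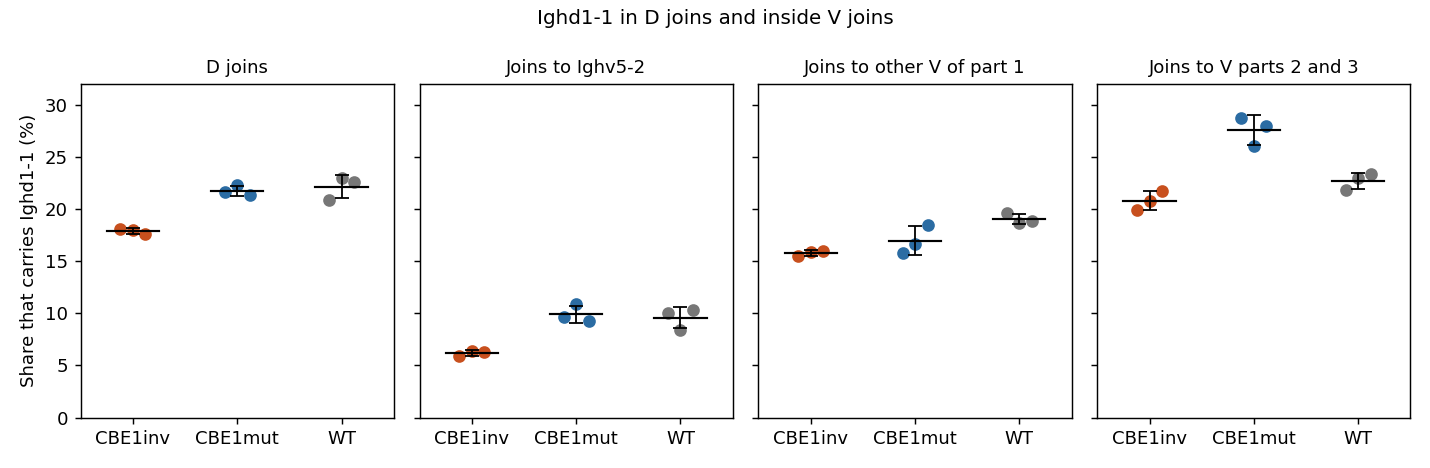
Share (%) of D joins made by Ighd1-1, and share of V joins with a readable D that carry Ighd1-1, by class of V segment, for CBE1inv, CBE1mut and WT (1 point per library, mean and SD, n = 3 each). CBE1inv lies below CBE1mut in D joins, Ighv5-2 joins and joins of V parts 2 and 3, and overlaps it in joins of the other V segments of part 1.

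Other D segments differed by class as well. The Ighd2-like segment at 114705399 made up 22.4%, 22.9% and 23.5% inside Ighv5-2 joins in CBE1inv, against 20.3%, 18.5% and 20.1% in CBE1mut (log2 change 0.22, adjusted p = 0.0017, limma voom). Inside joins of V parts 2 and 3 it made up 11.02%, 12.05% and 12.4% in CBE1inv and 7.59%, 7.03% and 7.19% in CBE1mut (log2 change 0.71, adjusted p = 4.37e-04, limma voom). Inside joins of the other V segments of part 1 it made up 16.2%, 16.2% and 15.6% in CBE1inv and 15.7%, 14.9% and 13.3% in CBE1mut, which did not pass (log2 change 0.13, adjusted p = 0.10, limma voom). Nor did it pass over all V joins, where the groups overlap (log2 change 0.03, adjusted p = 0.85, limma voom). Ighd4-1 fell inside joins of V parts 2 and 3 (log2 change -0.80 ± 0.24, adjusted p = 0.0077, limma voom), with 3.56%, 2.03% and 2.13% in CBE1inv and 5.37%, 3.36% and 4.28% in CBE1mut, values that overlap. It did not pass inside Ighv5-2 joins, with 1.48%, 2.73% and 1.85% in CBE1inv and 1.63%, 1.72% and 1.46% in CBE1mut (log2 change 0.30, adjusted p = 0.49, limma voom). It did not pass inside joins of the other V segments of part 1 (log2 change -0.44, adjusted p = 0.081, limma voom) or over all V joins (0.02, adjusted p = 0.92, limma voom).

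The reading frame of V joins also differed by class, in another pattern. A join is in frame when the conserved cysteine codon of V and the tryptophan codon of JH4 are in register, which a productive heavy chain needs, and it could be read in 81.5% to 84.3% of V joins. Over all V joins 29.1%, 28.6% and 28.4% were in frame in CBE1inv, against 31.4%, 33.8% and 32.8% in CBE1mut and 24.04%, 25.4% and 25.7% in WT. The difference of means was -3.98 points, without overlap (exact permutation test, two-sided p = 0.1). In joins of Ighv5-2 the shares overlapped, with 35.5%, 37.1% and 35.5% in CBE1inv and 35.7%, 36.8% and 35.6% in CBE1mut. In joins of the other V segments of part 1 they were 25.1%, 23.0% and 23.9% in CBE1inv and 26.0%, 30.2% and 29.5% in CBE1mut. In joins of V parts 2 and 3 the direction was the opposite, with 23.7%, 21.6% and 22.5% in CBE1inv, against 14.6%, 17.1% and 18.2% in CBE1mut (difference 5.99 points, exact permutation test, two-sided p = 0.1). WT had 21.4%, 21.9% and 21.8% in that class, which overlaps CBE1inv. The deposited files hold no junction with more than 30 bases between the JH4 and V parts of a read, so V joins with a long D region are not among those counted.

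Orientation and junction structure of D and V joins differed little. Deletional joining keeps the orientation of D and V, and joins in the opposite orientation were 0.159% to 0.309% of D joins and 0.445% to 0.593% of V joins over the 6 libraries. The difference of means was -0.014 points for D joins (exact permutation test, two-sided p = 0.9) and -0.026 points for V joins (exact permutation test, two-sided p = 0.7). The median number of bases between the JH4 and partner parts was 3 for D joins and 17 for V joins in both genotypes. Direct or overlapping ends, with no added base, were 10.9% to 11.96% of D joins and 0.324% to 0.625% of V joins.

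Junctions within the JH region were nearly all in the inverted orientation, with 96.8%, 98.8% and 98.1% in CBE1inv, against 95.1%, 95.9% and 95.9% in CBE1mut. The difference of means was 2.28 points, without overlap (exact permutation test, two-sided p = 0.1). WT, at 93.8%, 99.2% and 95.9%, overlapped CBE1inv. Inverted JH junctions numbered 2741, 2252 and 2499 per 100000 in CBE1inv, against 1507, 1510 and 1678 in CBE1mut and 1565, 2032 and 2005 in WT. Per 100 D joins the order turned, with 5.27, 4.44 and 5.05 in CBE1inv, against 5.44, 5.85 and 6.29 in CBE1mut and 2.56, 3.27 and 2.99 in WT. The groups did not overlap on either scale, and their direction depended on which was used. As a zone, JH junctions of both orientations per 100000 junctions did not pass (log2 change 0.64 ± 0.32, adjusted p = 0.089, limma). Junctions outside Igh, in the rest of the genome, did not pass (70.8, 53.7 and 83.4 per 100000 in CBE1inv and 86.7, 37.8 and 70.7 in CBE1mut).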

How the data were processed

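Per the labels, reads were aligned to a 129 Igh sequence joined with mm9, and the submitters' processing notes name Bowtie2, with no version. The deposited files hold 1 row per junction with alignment positions and no abundance value (unit: other, per the file headers); rows were tabulated here by position into junctions per 100000 rows. Their duplicate column marks no row, although 10.4% to 19.8% of reads in the 6 libraries repeat a sequence. Segments were located on the alignment target rebuilt from the reads, with names from mm9 through BLAST 2.17.0: 25 D (5 with official symbols) and 151 V (81). A junction belonged to a segment within 100 bp of it. Segments needed 10 joins in 3 of 18 libraries (167 of 176).

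Levels were tested with limma 3.58.1 (voom for segments, log2 of the level plus 1 for zones; R 4.3.3) over the 18 bone marrow libraries, 3 for each of 6 genotypes, with Benjamini-Hochberg adjustment, and single values by exact permutation tests in Python 3.11.15. The voom fit of segments was run on simulated counts with known changes, and the exact test on fixed inputs of known p. The zone fit was not tested in this way. The intended zone beyond the 3′ end had 0 joins in all libraries and was not fitted. Alternatives covered single libraries left out, a replicate block, the samples fitted, low-count filters, scaling, window, repeated reads and the length of the D match.

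The segments named were all D, the 10 V nearest to D, the 3 most used V in each part, up to 10 risers and 10 fallers per scale, and the 5 most used interval positions. The text gives those with values that bear on a comparison. Members and lists were chosen with earlier results of these data known. Same-numbered libraries of CBE1inv and CBE1mut did not deviate together (correlations of 0.061, 0.025 and -0.12 over 167 segments), so the numbers do not pair them.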

Additional observations from a re-analysis of the deposited data

How the results depend on the processing

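Direction and call were kept in most settings. Per 100000 junctions, the 69 higher segments became 40 to 60 with a library left out (40 without CBE1mut library 2). They became 91 with the 6 libraries alone, 43 with limma trend and 0 with median-of-ratios factors. With those factors the log2 change turned to -0.32 for Ighd4-1, -0.18 for Ighd1-1, -0.26 for Ighv5-6, -0.12 for Ighv1-67 and -0.31 for Ighv8-12. Within V joins they gave 1 higher and 5 lower, in place of 125 and 3. Without Ighv5-2 the counts were 45 and 3, and without the 4 nearest V 1 and 1. Ighv2-3 turned to -1.0, -0.37 and -0.91 in these 3 settings. The rescaling changes these shares by construction. Leaving out a library gave 2 to 4 higher and 3 to 5 lower D segments within D joins (2 without CBE1mut library 2, 3 without CBE1mut library 1), 4 to 5 higher zones and 114 to 124 higher V segments.

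The single lower D inside V joins was lost (0) with the replicate block, limma trend, the 6 libraries alone, median-of-ratios factors, repeated reads counted once, a match of 10 bases, and in joins of other V of part 1, and ranged from 0 to 1 with a library left out. In V parts 2 and 3 there were 2. By class, Ighd1-1 was at -0.67, -0.10 and -0.41, Ighd1-like 114719358 at -0.024 in Ighv5-2 joins, and Ighd2-like 114695747 at 0.091 and 0.33 in Ighv5-2 joins and V parts 2 and 3. The in-frame difference in V parts 2 and 3 was 5.99 points. The causes were not tested.

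Values near 0 changed sign with a library left out: rest of the genome -0.20 to 0.39, inverted D joins -0.043 to 0.032 points, inverted V joins -0.069 to 0.0050, direct or overlapping V ends -0.012 to 0.139, Ighd1-1 inside V joins -0.087 to 0.328 points and -0.0074 to 0.034 on the log2 scale, and in-frame Ighv5-2 joins -0.58 to 0.34 (0.14 with repeated reads once). The V share difference ranged from -26.1 to -24.6 points.

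The replicate block gave 69 higher and 5 lower segments, 126 and 3 within V joins, 3 and 5 within D joins, and 5 higher zones; paired exact tests of 3 pairs cannot go below p = 0.25. Sites under about 30 joins per library have wide counting error.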
